A study of Mus musculus with 2 samples.

Results

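The 40 genes described here encode enzymes and transporters of the urea cycle and of amino acid breakdown in the liver. They were chosen by name, and all 40 were found among the 19073 features of both libraries. By role, 6 belong to the urea cycle, 8 to glutamine, glutamate and transamination, 4 each to the breakdown of histidine, of serine and glycine, of tyrosine and of tryptophan, and 5 to methionine and cysteine. The other 5 act on proline, hydroxyproline, lysine, asparagine and phosphoethanolamine.

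The urea cycle turns ammonia, which is toxic, into urea, and liver cells carry it out from the nitrogen that amino acid breakdown and glutaminase release. Blood crosses the liver lobule from the portal tract to the central vein, and hepatocytes differ along this path. In the textbook arrangement, urea synthesis and glutaminase lie toward the portal end, while the last cells before the central vein take up glutamate and make glutamine from the ammonia that is left.

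Hepatocytes came from male p16-Tom mice on a C57BL/6 background, heterozygous for p16-CreERT2 and R26-CAG-LSL-tdTomato-WPRE, in which tamoxifen labels for good the cells that transcribe p16Ink4a at that time. All mice had received CCl4, which injures the hepatocytes around the central vein, for 4 weeks, and tamoxifen, so that both groups carry the same alleles and the same injury and neither is an uninjured control. Fixed liver was dissociated and cells positive for Hoechst, MitoBrilliant 646 and either Tom+ (p16high) or Tom- (p16low) were sorted and measured by probe-based single-cell RNA sequencing. Each group gave 1 library, the number and age of the mice behind it were not given in the sources used here, and the Cre marks p16 transcription at the time of tamoxifen only, in whatever cell type it occurs. With 1 library per group every difference between Tom+ and Tom- is a difference between 2 libraries, and no test between groups was possible.

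Per library, 23220 (Tom-) and 16339 (Tom+) barcodes held 681279005 and 715333889 UMIs (unique molecular identifiers, 1 per captured molecule), and 503 barcode sequences occurred in both. Filters on depth and on markers of other cell types left 9076 Tom- and 7851 Tom+ hepatocytes with medians of 30867 and 36505 UMIs. The reporter checked the sort: Tom- hepatocytes held tdTomato at 75.1 CPM and Tom+ hepatocytes at 814 CPM (CPM is the count of a gene in the summed cells, scaled to a common total of 1000000 UMIs). Among the kept cells, the summed level of 8 immune markers lay between 193 and 289 CPM over the layers of the Tom- library and between 140 and 230 CPM in the Tom+ library. All 6 cholangiocyte markers were at 0, because a cell with any such UMI had been left out.

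Each cell was placed along the lobule by a score of 12 central and 12 portal genes, none of them among the 40, and cells were cut into 5 layers, from layer 1 (central) to layer 5 (portal), and into 20 finer bins. The 2 sorts lay at different places. Layer 1 held 841 cells (9.27%) of the Tom- and 2412 cells (30.7%) of the Tom+ hepatocytes, and layer 5 held 2495 (27.5%) and 983 (12.5%). Genes outside the score were used to check it. Glul, the glutamine synthetase of the last central cells, went from 288 CPM in layer 1 to 6.64 CPM in layer 5 of the Tom- library. In the Tom+ library it went from 370 to 12.3 CPM. Pck1, a portal gene of gluconeogenesis, was higher at the portal end, by 1.68 and 1.88 on the log2 scale. Gc, listed as a portal check gene, was nearly level (0.04 and 0.10), so that it did not mark the portal end here. Igfbp2, listed for the middle, was highest in layer 2 (671 CPM in Tom- and 600 CPM in Tom+). Hamp, also listed for the middle, was highest in layer 4 (178 and 141 CPM). In Tom+ it was also at 121 CPM in layer 1, so that it marked the middle poorly there. Of the cells, 17.1% (Tom-) and 15.4% (Tom+) lay within 2% of the score range from a boundary between layers, so that neighbouring layers share cells of nearly equal score.

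Most of the 40 genes were higher at the portal end. Levels are given in CPM, which can be compared for the same gene between layers and libraries, whereas levels of different genes depend on their probes. Between layers 5 and 1, 25 of the 40 were at least 1.5-fold higher at the portal end in the Tom- library, where 5.14% of all 7941 genes compared were, and 27 of the 40 in the Tom+ library, where 5.13% of 8025 genes were. In contrast, 4 (Tom-) and 3 (Tom+) of the 40 were at least 1.5-fold higher at the central end, beside 9.85% and 11.7% of all genes. The median log2 ratio of portal over central level was 0.85 and 0.90 for the 40, and -0.16 and -0.21 for all genes compared, so that the median of all genes was itself shifted toward the central end on this scale. At a limit of 2-fold, 18 of the 40 were portal in each library (2.56% of all genes in Tom- and 2.62% in Tom+) and 3 were central in each (3.74% and 4.4%). In both libraries, 25 genes were past 1.5-fold at the portal end (62.5%, beside 4.45% of 7881 genes compared in both). At the central end there were 3, Slc1a2, Oat and Prodh (7.5%), which was near the 8.7% of all genes. Of the rest, 9 were past 1.5-fold at neither end and 3 (Kmo, Mat1a and Bhmt) in 1 library only.

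**Figure D1:**
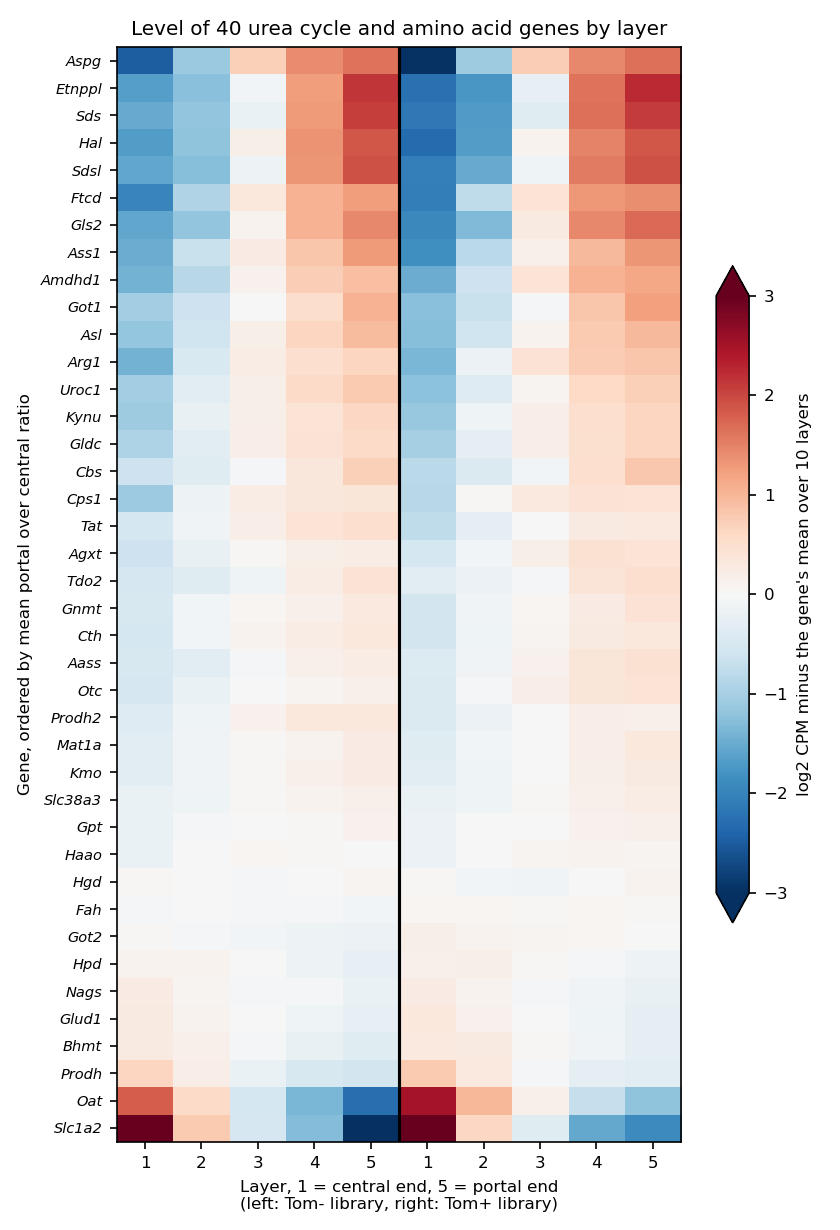
Level of each of the 40 genes (vertical axis, ordered by the mean log2 ratio of portal over central level) in layers 1 to 5 (horizontal axis) of the Tom- (left) and the Tom+ (right) library. Colour is log2 CPM minus the mean of the gene over its 10 values, and darker colours at the ends of the scale include values beyond 3; Aspg, Etnppl and Sds stand at the top with the steepest portal rise and Oat and Slc1a2 at the foot with the steepest fall.

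The 2 genes with the strongest central preference were Slc1a2 and Oat. Slc1a2 encodes a high-affinity glutamate transporter of the plasma membrane. It was at 258, 36.0, 14.6, 8.55 and 2.29 CPM in layers 1 to 5 of the Tom- library and at 288, 32.0, 16.1, 7.23 and 5.51 CPM in those of the Tom+ library. Its level in layer 1 was the highest of the 5 in both libraries, and its log2 ratio of portal over central level was -6.82 in the Tom- and -5.71 in the Tom+ library. Oat encodes ornithine aminotransferase, which makes glutamate semialdehyde from ornithine. It was at 225, 94.4, 44.1, 24.5 and 13.2 CPM in layers 1 to 5 of the Tom- library and at 356, 126, 70.8, 39.0 and 27.6 CPM in those of the Tom+ library. Oat declined in every layer step of both libraries, with log2 ratios of -4.09 and -3.69.

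The promoters of these genes are shown because they stand apart from the other members in their central expression. Of the 40 genes, 29 matched an entry of the RefSeq promoter table (GRCm38.p6, the mm10 build). Arg1, Sds, Cth, Gls2, Slc38a3, Kynu, Mat1a, Gpt, Asl, Cps1 and Sdsl had no entry. The 250 bases before the RefSeq start are given 5′ to 3′ on the strand of the gene, at chr2:102706188-102706437 (+ strand) for Slc1a2 and chr7:132576399-132576648 (- strand) for Oat. The Slc1a2 window lies inside the annotated span of the gene (chr2:102658659-102790784 in GENCODE), since this RefSeq start is a later one, and the Oat window ends where the gene (chr7:132557478-132576398) begins. Capitals mark matches to the letters searched.
Slc1a2: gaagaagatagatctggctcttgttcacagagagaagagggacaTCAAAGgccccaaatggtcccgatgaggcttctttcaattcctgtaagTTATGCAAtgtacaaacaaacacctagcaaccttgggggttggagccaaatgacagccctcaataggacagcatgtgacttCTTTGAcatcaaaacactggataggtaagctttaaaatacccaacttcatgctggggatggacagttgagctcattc
Oat: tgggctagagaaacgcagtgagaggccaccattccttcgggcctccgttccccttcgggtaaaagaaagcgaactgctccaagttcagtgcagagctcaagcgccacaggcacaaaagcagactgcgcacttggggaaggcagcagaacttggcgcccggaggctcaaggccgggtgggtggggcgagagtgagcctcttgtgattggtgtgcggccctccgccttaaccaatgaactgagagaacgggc

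Both strands were searched for CTTTGA (a core of sites bound by TCF/LEF factors of the Wnt pathway), TTGCNNAA (C/EBP), TGACG (the core of cyclic AMP response elements) and CAAAGTCCA (HNF4A, whose CAAAG can overlap the reverse of the TCF/LEF core). The Slc1a2 window held the TCF/LEF core starting at -206 and at -77 and the C/EBP letters at -158, counted from the RefSeq start. The Oat window held none of the 4. Of all 27025 promoters of this length, 14.0% held the TCF/LEF core, against 8 of the 29 members (27.6%), and 9.55% held the C/EBP letters, against 5 of 29 (17.2%). For TGACG the shares were 17.9% and 2 of 29 (6.90%), and for CAAAGTCCA 0.381% and 0 of 29. By end, 4 of 17 members portal in both libraries (23.5%) and 1 of 3 central members (33.3%) held the TCF/LEF core. A match of letters is no site, and these shares are descriptions of this window only.

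Prodh, the proline dehydrogenase that opens proline breakdown, was the third gene of the central end, with a shallower course. It was at 1210, 891, 674, 549 and 526 CPM in layers 1 to 5 of the Tom- library and at 1324, 941, 737, 636 and 614 CPM in those of the Tom+ library, which gave log2 ratios of -1.20 and -1.11. Its ratios were thus far smaller in size than those of Slc1a2 and Oat. Prodh2, the related dehydrogenase of hydroxyproline, went the other way (log2 ratios of 0.70 and 0.59), although relatives such as Prodh and Prodh2 could share probes.

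Among the urea cycle genes, 5 of 6 rose toward the portal end in both libraries, by different amounts. Ass1 (argininosuccinate synthetase) was at 952, 1682, 3199, 4792 and 6466 CPM in layers 1 to 5 of the Tom- library and at 744, 1517, 2990, 5261 and 6688 CPM in those of the Tom+ library. Asl, the lyase of the next step, was at 299.8, 444, 756, 1056 and 1294 CPM in layers 1 to 5 of the Tom- library and at 279, 448, 728, 1151 and 1316 CPM in those of the Tom+ library. Arg1, the arginase that releases urea, was at 357, 698, 1112, 1357 and 1476 CPM in layers 1 to 5 of the Tom- library and at 366, 843, 1280, 1608 and 1703 CPM in those of the Tom+ library. The log2 ratios were 2.76 and 3.17 for Ass1, 2.11 and 2.24 for Asl, and 2.05 and 2.22 for Arg1, so that Ass1 was the steepest of the cycle. Cps1, the mitochondrial synthetase that takes in ammonia, was at 738, 1414, 1826, 2000 and 2029 CPM in layers 1 to 5 of the Tom- library and at 878, 1609, 1916, 2109 and 2107 CPM in those of the Tom+ library. Most of its rise lay between layers 1 and 3, and the log2 ratios were 1.46 and 1.26. Otc, the mitochondrial ornithine transcarbamylase, was the shallowest of the portal genes of the cycle (0.67 and 0.83), from 116 to 185 CPM in the Tom- and from 122 to 218 CPM in the Tom+ library. Nags, which makes the activator that Cps1 needs, was slightly higher at the central end (-0.43 and -0.49) and under the 1.5-fold limit.

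Of the 8 genes of glutamine, glutamate and transamination, Gls2 and Got1 were past the limit at the portal end, Slc1a2 and Oat at the central end, and 4 at neither. Gls2, the liver glutaminase, was at 37.9, 49.0, 121, 229 and 306 CPM in layers 1 to 5 of the Tom- library and at 29.2, 44.9, 134, 305 and 364 CPM in those of the Tom+ library. It rose a little from layer 1 to layer 2 and by more CPM in each later step, with log2 ratios of 3.01 and 3.64. Got1, the cytosolic aspartate aminotransferase, had log2 ratios of 2.08 and 2.47, whereas Got2, its mitochondrial relative, had -0.23 and -0.15. Glud1, the glutamate dehydrogenase, was a little higher at the central end (-0.51 and -0.57), and Gpt (alanine aminotransferase) and the glutamine transporter Slc38a3 a little higher at the portal end (0.33 and 0.35, and 0.35 and 0.44). Glutaminase (Gls2) and glutamine synthetase (Glul) therefore occupied opposite ends in both libraries.

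All 4 genes of histidine breakdown were portal in both libraries. Hal, the lyase of the first step, was at 78.3, 108, 285, 645 and 916 CPM in layers 1 to 5 of the Tom- library and at 50.8, 79.2, 269.9, 708 and 919 CPM in those of the Tom+ library. Ftcd, the transferase of the last step, was at 85.2, 180.4, 416, 688 and 798 CPM in layers 1 to 5 of the Tom- library and at 79.6, 199, 444, 819 and 882 CPM in those of the Tom+ library. Hal and Amdhd1, the lyase and the imidazolonepropionase, lie beside each other in mm10 (chr10:93488768-93519304, + strand, and chr10:93523338-93540033, - strand). The log2 ratios were 3.55 and 4.18 for Hal, 1.83 and 1.95 for Uroc1, 2.31 and 2.66 for Amdhd1, and 3.23 and 3.47 for Ftcd, so that Uroc1, the second step, was the shallowest of the pathway.

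Likewise, all 4 genes of serine and glycine breakdown were portal. Sds, serine dehydratase, was at 209, 265, 526, 1464 and 2514 CPM in layers 1 to 5 of the Tom- library and at 136, 184, 463, 1878 and 2575 CPM in those of the Tom+ library. On the log2 scale its largest step lay between layers 3 and 4 in both libraries. Its relative Sdsl, with which it could share probes, was at 6.94, 8.47, 18.5, 51.9 and 76.7 CPM in layers 1 to 5 of the Tom- library and at 4.93, 7.19, 18.7, 60.7 and 76.8 CPM in those of the Tom+ library. The genes are neighbours in mm10 (Sds at chr5:120476526-120483932, + strand, and Sdsl at chr5:120458186-120472810, - strand). The log2 ratios were 3.59 and 4.24 for Sds and 3.47 and 3.96 for Sdsl, against 1.48 and 1.65 for Gldc (the glycine cleavage decarboxylase) and 0.86 and 0.94 for Agxt (the aminotransferase of glyoxylate).

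The remaining portal genes of large amplitude were Aspg and Etnppl. Aspg, an asparaginase, was at 33.0, 83.6, 300.4, 485 and 562 CPM in layers 1 to 5 of the Tom- library and at 23.4, 87.5, 303, 497 and 568 CPM in those of the Tom+ library. Etnppl, the lyase of phosphoethanolamine, was at 21.9, 28.9, 65.4, 165 and 304 CPM in layers 1 to 5 of the Tom- library and at 14.7, 20.6, 58.5, 214 and 325 CPM in those of the Tom+ library. Aspg already rose clearly from layer 1 to layer 2, whereas the Etnppl rise was small there and larger from layer 3 on. The log2 ratios were 4.09 and 4.60 for Aspg and 3.79 and 4.47 for Etnppl.

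The aromatic amino acid genes were flatter. Of the 4 genes of tyrosine breakdown only Tat, the aminotransferase of the first step, was past the limit, with 2566 CPM in layer 1 and 5238 CPM in layer 5 of the Tom- library and 2182 and 4551 CPM in the Tom+ library. Hpd, Hgd and Fah, the later steps, lay between -0.36 and 0.07 in both libraries. Of the tryptophan genes, Tdo2, which opens the pathway, and Kynu were past the limit (0.95 and 0.82, and 1.69 and 1.77), Haao was not (0.22 and 0.24), and Kmo was at the limit, with 0.57 and 0.59. Of the methionine and cysteine genes, Cbs (1.31 and 1.60), Gnmt (0.78 and 0.96) and Cth (0.84 and 0.86) were portal in both libraries, Mat1a in the Tom+ library only (0.58 and 0.68), and Bhmt was central in the Tom- library only (-0.64 and -0.56). Aass, the first enzyme of lysine breakdown, had 0.69 and 0.85.

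**Figure D2:**
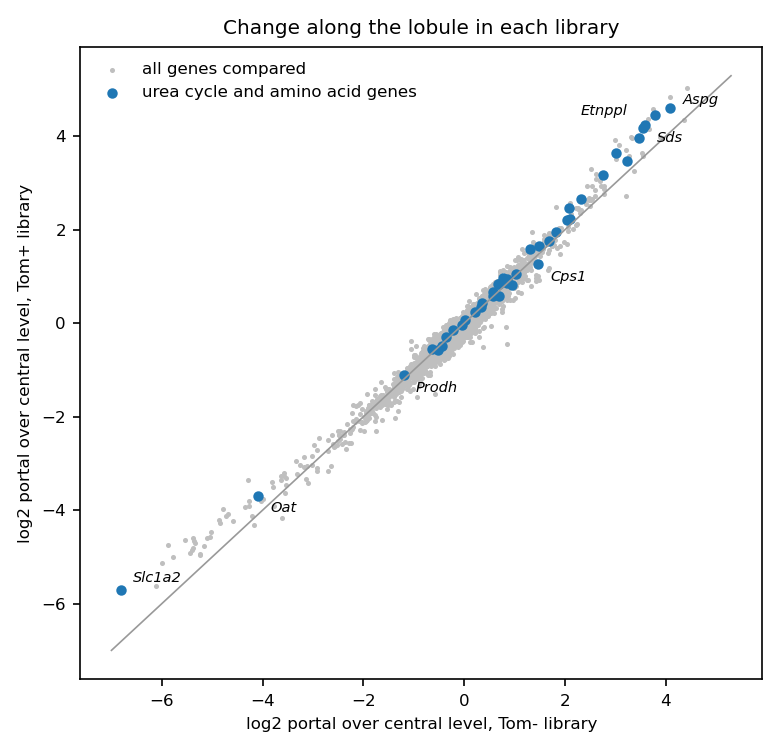
Log2 ratio of portal (layer 5) over central (layer 1) level in the Tom- (horizontal axis) and the Tom+ library (vertical axis) for all genes compared in both (grey) and the 40 genes (blue); the line marks equal ratios. All 40 genes have the same sign in both libraries, as do 7190 of all 7881 genes compared. The 40 range from -6.82 and -5.71 (Slc1a2) to 4.09 and 4.60 (Aspg).

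The order of the genes was shared by both libraries. All 40 had the same sign of the ratio in both, as did 7190 of all 7881 genes compared in both. Counting intervals spanned both signs for Hgd (Tom-, -0.003 to 0.058) and Fah (Tom+, -0.058 to 0.008). When each library's ratios were centred on the median of all genes, Got2 came to -0.06 in Tom- and 0.06 in Tom+. Pearson's r of the ratios across the 40 genes was 0.992, beside 0.978 across 7881 genes. This is a description across genes, which share the same cells, score and boundaries. Of the 25 genes that were portal in both libraries, 22 had the larger ratio in Tom+, beside 62.1% of all portal genes. For comparison, 53 other genes of ammonia handling and amino acid breakdown were listed and 46 had enough counts. Of these 3 (Tom-) and 4 (Tom+) were past the limit at the portal end and 8 and 9 at the central end, with medians of 0.01 and 0.02.

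The 20 bins show where along the lobule each gene changed. The midpoint position was taken as the percentile of the score (0 central, 100 portal) at which a gene passed the mean of its levels in the first 2 and the last 2 bins. This measure was added after the levels had been seen. Slc1a2 passed its midpoint at 13.8 (Tom-) and 9.93 (Tom+), Oat at 15.9 and 12.4, and Prodh at 29.1 and 25.7. Of the portal genes Cps1 was the earliest, at 26.2 and 21.4.

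Within the urea cycle the midpoints were spread over the lobule. Otc followed Cps1 at 32.3 and 33.9, then came Arg1 at 38.9 and 36.1, Asl at 52.6 and 51.1, and Ass1 at 58.0 in both libraries. Cps1 and Otc are mitochondrial and the other 3 cytosolic. Nags, also mitochondrial, was under the 1.5-fold limit and was given no midpoint. Histidine breakdown was spread as well, with Uroc1 at 47.7 and 45.1, Amdhd1 at 50.3 and 48.3, Ftcd at 50.6 and 49.4 and Hal at 62.9 and 61.5. Gls2 lay at 59.3 and 58.4, close to Ass1. The genes closest to the portal end were Sds, at 69.3 and 65.7, and Etnppl, at 71.4 and 68.2.

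**Figure D3:**
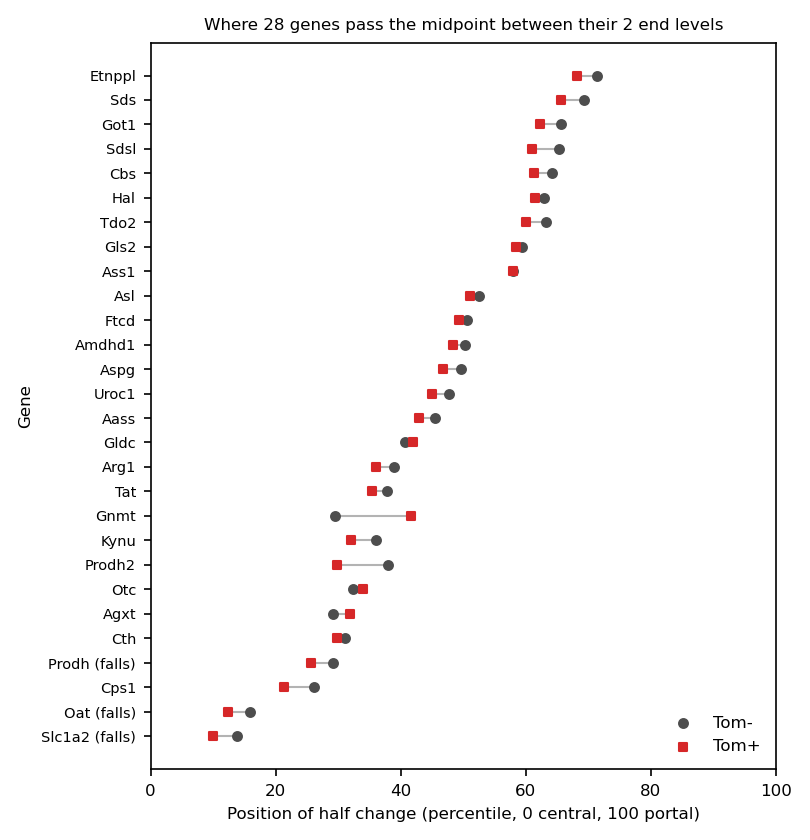
Midpoint position (horizontal axis, percentile of the position score from central to portal) of the 28 genes past 1.5-fold the same way in both libraries, with a grey circle for Tom- and a red square for Tom+; genes marked as falling are central. Slc1a2 and Oat lie nearest to the central end and Sds and Etnppl nearest to the portal end in both libraries.

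The libraries differed little in this measure. The median distance between the libraries was 2.69 percentile points for the 25 portal genes, and the widest was 12.2 points (Gnmt). In Tom+ the midpoint lay nearer to the central end for 24 of the 28 genes, the exceptions being Agxt, Otc, Gnmt and Gldc. For the 25 portal genes this was 21 (84.0%), with a median shift of -2.63 points, beside 61.0% and -1.26 points for all 351 portal genes. For all 686 central genes the share was 50.1%, with a median shift of -0.05 points.

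**Figure D4:**
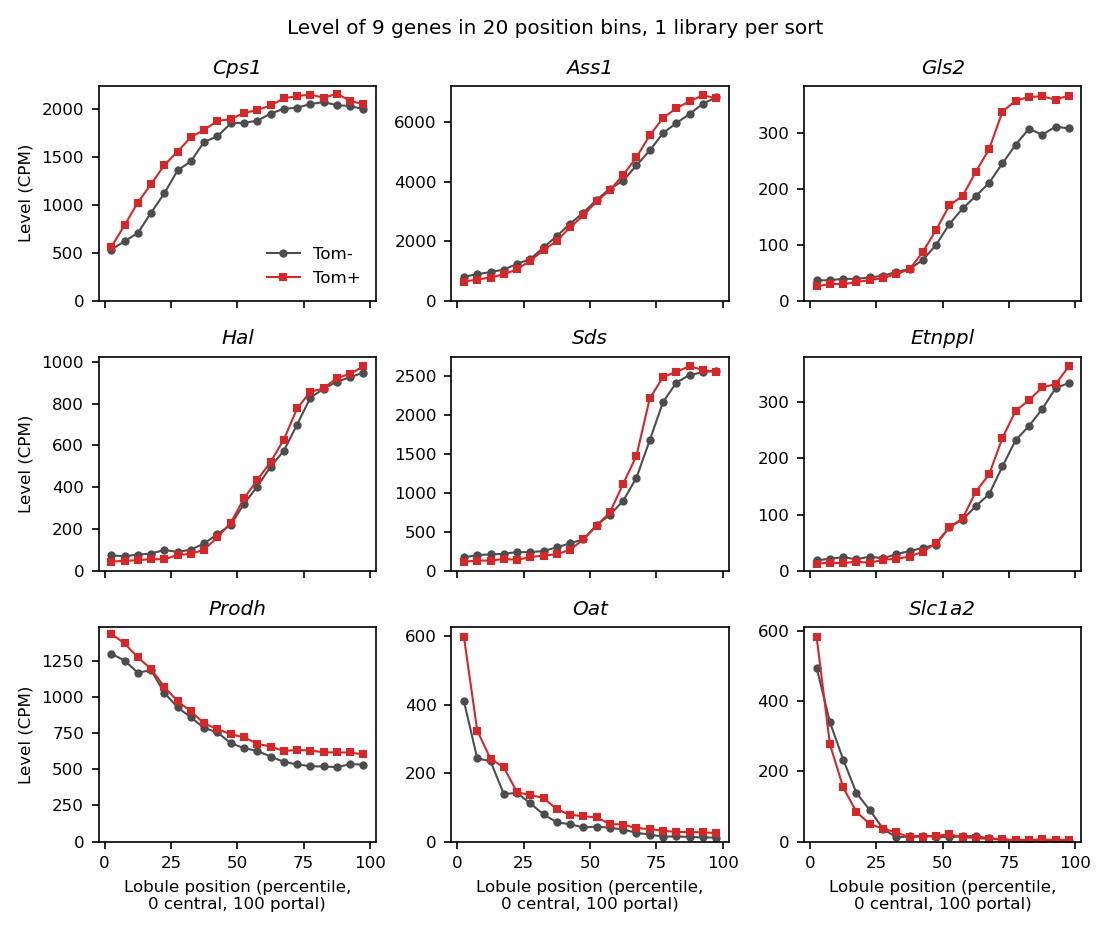
Level in CPM (vertical axes, from 0) of 9 genes in 20 position bins (horizontal axes, percentile of the position score from central to portal) of the Tom- (grey circles) and Tom+ (red squares) library. Cps1 rises early, Ass1 slowly over the first bins and more steeply through the middle, Gls2, Hal, Sds and Etnppl late, and Prodh, Oat and Slc1a2 fall.

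Tom+ and Tom- hepatocytes were then compared, first over all hepatocytes and then at the same lobule position. Over all hepatocytes, 17 of the 40 genes were at least 1.2-fold lower in Tom+, where 3.33% of 7815 genes were, and 3 were at least 1.2-fold higher (Oat, Prodh and Slc1a2), where 9.94% were. All 17 were portal genes, and the largest differences were those of Hal (log2 ratio of Tom+ over Tom- of -0.78), Sds (-0.74) and Sdsl (-0.73). Slc1a2 was at 33.9 CPM in Tom- and 97.8 CPM in Tom+ hepatocytes, and Oat at 53.2 and 159.8 CPM. At matched position, where the levels of the 20 bins were averaged with equal weight, none of the 40 was 1.2-fold lower (0.99% of 7781 genes were) and 2 were 1.2-fold higher, Oat and Amdhd1 (2.69% of genes were). The 17 genes then lay between -0.18 and 0.27, with a median of 0.05. The counts of the unmatched comparison thus depended on where the 2 sorts lay in the lobule.

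**Figure D5:**
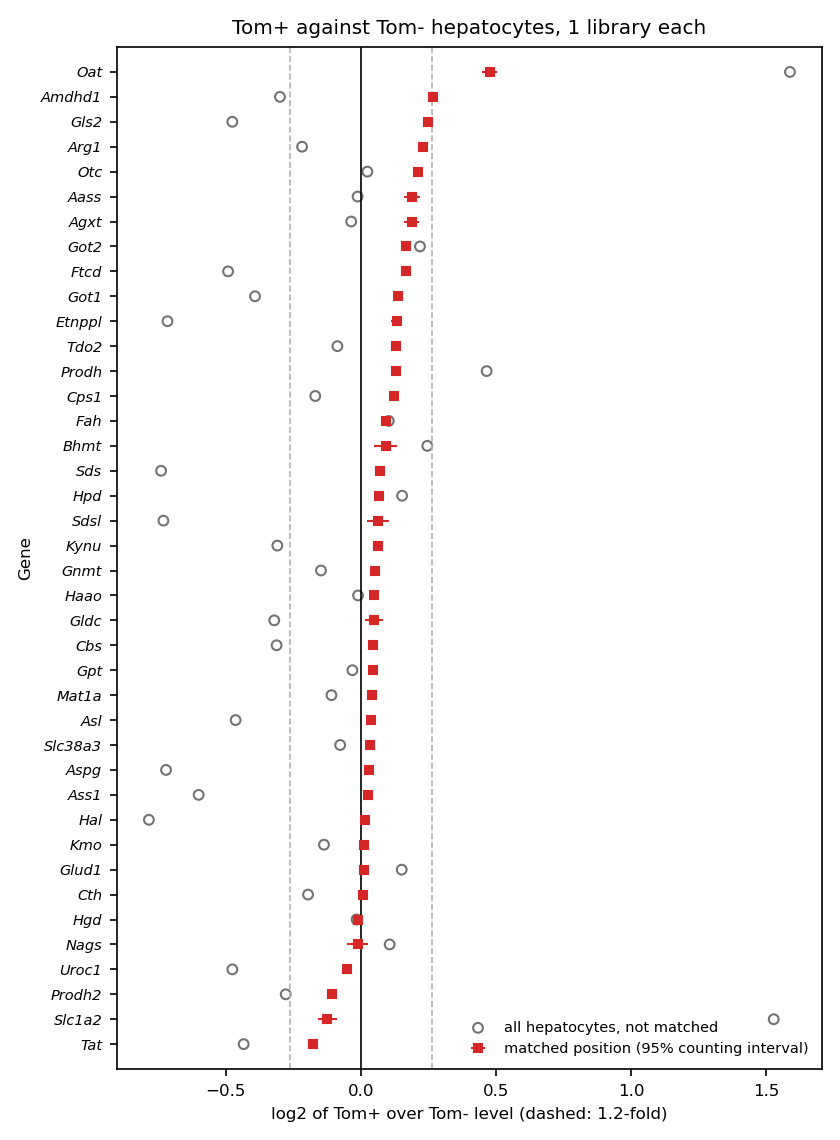
Log2 ratio of the Tom+ over the Tom- level (horizontal axis) for each of the 40 genes (vertical axis), over all hepatocytes (open circles) and at matched lobule position (red squares, with 95% intervals for counting error only); dashed lines mark 1.2-fold. The open circles reach from -0.78 (Hal) to 1.59 (Oat) and the squares from -0.18 (Tat) to 0.48 (Oat).

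At matched position 34 of the 40 genes lay above 0, as did 45.8% of all genes, and 6 below, with a median of 0.06, against -0.01 for all genes. For 8 genes (Ass1, Nags, Hal, Kmo, Gldc, Cth, Aspg and Slc1a2) the sign changed under at least 1 of 18 other settings. Intervals for counting error excluded 0 for 36 of the 40 (the exceptions were Nags, Hgd, Kmo and Cth), as they did for 70.6% of all genes, but they hold no error between animals. At a limit of 1.1-fold, 10 genes were higher in Tom+ (12.3% of all genes were) and 1 was lower, Tat (9.55% of all genes were). By group, the median was 0.08 for the urea cycle, 0.09 for glutamine, glutamate and transamination, 0.09 for histidine, 0.07 for serine and glycine, 0.03 for tyrosine, 0.06 for tryptophan, 0.04 for methionine and cysteine and 0.13 for the other 5. No group median reached 1.2-fold.

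The largest difference at matched position was that of Oat, with 87.3 CPM in Tom- and 121.4 CPM in Tom+ (log2 ratio 0.48, 95% counting interval 0.45 to 0.50). From layer 1 to layer 5 the ratio of the mean levels over the bins of each layer was 0.43, 0.37, 0.64, 0.71 and 1.03. Oat was thus higher in Tom+ in all 5. In the first bin Oat was at 410.3 CPM in Tom- and 598 CPM in Tom+, and in the first 2 bins together at 327 and 461 CPM. The first bin held 114 Tom- and 686 Tom+ cells, and Glul was at 587 and 731 CPM in it. Whether the cells lay at equal position inside this bin was not tested. As a background, cells were taken with immune markers above 5000 CPM and hepatocyte markers under 50% of their median, a class defined after levels had been seen and called leukocyte-rich here. In these cells Oat was at 57.2 CPM (Tom-) and 98.0 CPM (Tom+), which was 107.5% and 61.3% of its level over all hepatocytes. They held medians of 4244 (Tom-) and 3384 (Tom+) UMIs, against 33217 and 39065 in layer 5. Their CPM are therefore not directly comparable with those of hepatocytes. The levels of Oat in layer 5 (13.2 and 27.7 CPM) were below those in the leukocyte-rich cells. The part of this background in the ratios of any layer was not tested. Glul, which is also central, had a matched ratio of 0.11 and an unmatched ratio of 1.63.

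Amdhd1, the imidazolonepropionase of histidine breakdown, was the other gene past the limit, with 154 and 186 CPM (0.27, 0.25 to 0.29). It was at 52.2, 78.1, 153, 232 and 259 CPM in layers 1 to 5 of the Tom- library and at 49.4, 89.8, 184, 286 and 312 CPM in those of the Tom+ library. Its ratio was -0.04 in layer 1 and between 0.23 and 0.34 in layers 2 to 5. It lies close to the limit, and with other settings its ratio lay between 0.19 and 0.34.

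Below the limit, Gls2 (0.25, 0.23 to 0.27), Arg1 (0.23, 0.22 to 0.24) and Otc (0.21, 0.19 to 0.23) followed. Arg1 was at 993 CPM in Tom- and 1165 CPM in Tom+ at matched position, and its ratio was between 0.13 and 0.31 in the 5 layers. Otc was at 156 and 181 CPM, with ratios of 0.11 to 0.29. Gls2 was lower in Tom+ in layers 1 and 2 (-0.35 and -0.10) and higher in layers 3 to 5 (0.27, 0.38 and 0.25). In the plot of levels over 20 bins this is a steeper rise to a higher portal level. Aass (0.19), Agxt (0.19), Got2 (0.17) and Ftcd (0.17) complete the 9 largest positive ratios among the 10 largest in size.

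Tat was the only gene of the 10 largest that was lower in Tom+. It was at 4052 CPM in Tom- and 3587 CPM in Tom+ at matched position (-0.18, -0.18 to -0.17), and lower by a like amount in each layer, from -0.15 to -0.20. Tat is known to follow the day and glucocorticoids. Dbp and Per3, output genes of the circadian clock, together lay between 15.4 and 27.6 CPM over the Tom- layers and between 33.8 and 54.0 CPM over the Tom+ layers. Without cells at 50 CPM or more of these 2 genes the Tat ratio was -0.15, and their part in the difference was otherwise not tested.

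Of the urea cycle genes, Cps1 (0.12), Asl (0.04), Ass1 (0.02) and Nags (-0.01) differed by less than 1.1-fold overall. Cps1 differed most at the central end, with ratios of 0.37, 0.21, 0.08, 0.07 and 0.05 from layer 1 to layer 5. In bins 2 to 5 it was at 619, 703, 916 and 1118 CPM in Tom- and at 784, 1022, 1213 and 1412 CPM in Tom+. In the first bin the levels were 530 and 559 CPM, and in the last bin 1996 and 2045 CPM.

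The ratio kept its sign in all 5 layers for 19 of the 40 genes. In 16 it was above 0 in each layer (40%, against 23.1% of all genes), namely Cps1, Otc, Arg1, Oat, Got2, Gpt, Hpd, Fah, Tdo2, Kynu, Haao, Aass, Bhmt, Prodh, Agxt and Slc38a3. In 3, Tat, Uroc1 and Prodh2, it was below 0 in each layer (7.50%, against 26.8% of all genes). With layer sums in place of bin means, Kynu, Slc38a3 and Uroc1 no longer kept the same sign. Among the 25 portal genes, 17 were lower in Tom+ in layer 1 (median -0.04), where 54.7% of all 351 portal genes were, and 21 were higher in layer 5 (median 0.06), where 49.3% were. In 6 of the 40 genes (Ass1, Gls2, Sds, Hal, Etnppl and Slc1a2) the ratio had opposite signs in layers 1 and 5, with 1.2-fold in either and counting intervals that exclude 0 in both, beside 0.463% of all genes. With layer sums Hal and Slc1a2 no longer met this and 4 genes were left.

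The lower level of portal genes in the central layer of Tom+ was largest for Hal (-0.60), Sds (-0.58) and Etnppl (-0.55). Their levels there were small against the portal end: Hal was at 78.3 CPM in Tom- and 50.8 CPM in Tom+ in layer 1, and at 916 and 919 CPM in layer 5. In the leukocyte-rich cells (267 in Tom-, 194 in Tom+) the 40 genes had a median of 38.3% (Tom-) and 36.8% (Tom+) of their level in hepatocytes. Alb, a hepatocyte marker used to choose these cells, was at 35.97% and 36.85%. The choice required hepatocyte markers under 50% of their median, so that these shares follow in part from it. UMIs of the 40 genes were found in these cells, where free RNA and doublets cannot be told apart. Hal was at 177 and 119 CPM there, Sds at 440.4 and 239.7 CPM and Slc1a2 at 21.7 and 29.1 CPM (only 33 and 22 UMIs). Of the 25 portal genes 22 were lower in the Tom+ than in the Tom- leukocyte-rich cells, where 73.8% of all 351 portal genes were. Some of the 22 rested on few UMIs, such as Gldc with 43 (Tom-) and 9 (Tom+). Among these 22, 16 were also lower in layer 1 of Tom+ and 6 were not. Sdsl was lower in layer 1 (-0.44), where its levels were 6.94 and 4.93 CPM, under the limit of 10 CPM for a comparison. It had only 18 (Tom-) and 12 (Tom+) UMIs in the leukocyte-rich cells, too few to give a direction. The part of this background in the layer differences was not tested.

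Slc1a2 itself had a matched ratio of -0.13 (-0.16 to -0.09), against 1.53 without matching. Its ratio of mean bin levels was -0.14 in layer 1, whereas the ratio of the layer 1 sums was 0.16 (0.12 to 0.20). Its direction at the central end thus depended on the matching inside the layer. In layer 5 the ratio was 1.25, where its levels were 2.29 and 5.51 CPM, under the limit of 10 CPM for a comparison. In the first bin it was higher in Tom+ (495 and 582 CPM), as was Glul (587 and 731 CPM). In bins 2 to 5 Slc1a2 was lower in Tom+ (340.0, 234, 139 and 90.1 CPM against 277, 154, 84.6 and 50.5 CPM). In the same bins 2 to 5 Oat was at 243, 235, 139 and 142 CPM in Tom- and at 325, 242, 217 and 144 CPM in Tom+.

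Of the 46 other genes of ammonia handling and amino acid breakdown compared at matched position, 2 were at least 1.2-fold higher in Tom+, Pcbd1 (0.36), which recycles the cofactor of phenylalanine hydroxylase, and Bhmt2 (0.28), a homocysteine methyltransferase. Bckdha, a subunit of the branched-chain keto acid dehydrogenase, came next (0.26). None was 1.2-fold lower, the lowest being Gstz1 (-0.13), Gcdh (-0.11) and Acadsb (-0.10). The median was 0.03. The ammonia channel Rhbg, a central gene like Glul, had a matched ratio of 0.00 and an unmatched ratio of 1.32. In layer 5 its ratio was 0.71, at 1.6 CPM in Tom- and 2.6 CPM in Tom+.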

How the data were processed

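Hepatocytes of CCl4-treated and tamoxifen-treated mice were measured with the Chromium Fixed RNA (Flex) assay, 1 Tom- and 1 Tom+ library. The authors counted UMIs per gene and cell with Cell Ranger 7.2.0 (mm10) after hybridising probe pairs, with custom tdTomato probes added. The deposited values are raw counts, neither normalised nor filtered for cell type, and a probe reads a short target, so that related genes (Sds and Sdsl, Got1 and Got2, Prodh and Prodh2, Bhmt and Bhmt2) could share probes.

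Cells were kept by the limits of the study (2000 to 10000 genes, at most 100000 UMIs, mitochondrial fraction at most 0.05), with at least 4000 genes, and with each of 4 lists of non-hepatocyte markers at or below the median plus 5 scaled median absolute deviations. This replaced the cluster-based exclusion of the study, since clusters would be made with the counts of the 40 genes. For cholangiocyte markers the limit came to 0, which left out 3289 Tom- and 2055 Tom+ cells. No doublet caller was run. The position score was the mean scaled log level of 12 portal minus 12 central genes, with boundaries at quantiles in which both libraries had equal weight. Summed UMIs per library and layer or bin were scaled to CPM. Poisson intervals of levels were exact, as were conditional intervals of ratios along the lobule, without matching and of layer sums. Intervals of ratios at matched position and of ratios of mean bin levels were approximate (delta method on Poisson sums). All are at 95% and cover counting error only. Ratios between libraries within a layer are ratios of the mean CPM over its 4 bins, a choice made after seeing the data. The matched level is the mean over 20 bins with at least 50 cells each. A comparison needed 10 CPM or more in 1 of the sums and 20 UMIs in all, and size limits were 1.5-fold along the lobule and 1.2-fold between libraries. No p-value was computed, since each group is 1 library.

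The genes described in full are the 10 with the largest ratio along the lobule and the 10 with the largest matched ratio between libraries; others are given by counts or by a value beside their role. The 40 genes, the lists and the comparisons were chosen with earlier results of these data known. The matched ratio and the exact interval of a ratio were tested on simulated Poisson counts with the bins given. Cell selection, the position score and the boundaries were not simulated. Tools were Python 3.11.15, numpy 2.4.6, scipy 1.17.1, pandas 2.3.3 and matplotlib 3.10.9.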

Additional observations from a re-analysis of the deposited data

Results flagged for a closer look

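In 6 of the 40 genes the difference between Tom+ and Tom- hepatocytes, taken between mean levels over the bins of a layer, had opposite signs at the 2 ends of the lobule. Counting intervals excluded 0 at both ends, with at least 1.2-fold at either. The same held for 0.463% of all 7781 genes compared. With 1 library per group the difference between the ends was not tested. For 5 portal genes the log2 ratio of Tom+ over Tom- was below 0 in layer 1 and above 0 in layer 5: Ass1 (-0.30 and 0.06), Gls2 (-0.35 and 0.25), Sds (-0.58 and 0.04), Hal (-0.60 and 0.03) and Etnppl (-0.55 and 0.14). For Slc1a2, a central gene, the values were -0.14 and 1.25, and its levels in layer 5 were 2.29 and 5.51 CPM, under the limit of 10 CPM used for comparisons. Averaging over bins was chosen after seeing the data. With layer sums the Slc1a2 ratio in layer 1 was 0.16, so that its signs were not opposite, and the interval of the Hal ratio in layer 5 (-0.01 to 0.02) included 0, which left 4 genes. The opposite signs were also lost for Ass1 under 1 of 18 other settings (the last 6 score genes of each list) and for Slc1a2 under 2. Only the sign was followed over these settings, not whether intervals excluded 0. The layer 5 ratio came as low as 0.00092 for Hal (means over cells) and 0.0045 for Sds (9 layers and 40 bins). In leukocyte-rich cells all 5 portal genes were also lower in Tom+ (Ass1 1574 and 1130 CPM, Gls2 72.3 and 51.6 CPM, Sds 440.4 and 239.7 CPM, Hal 177 and 119 CPM, Etnppl 63.1 and 29.1 CPM in Tom- and Tom+). Gls2 rested on only 110 and 39 UMIs there and Etnppl on 96 and 22. Slc1a2 was at 21.7 and 29.1 CPM, from 33 and 22 UMIs, too few to give a direction. The part of this background was not tested.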

How the results depend on the processing

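The median matched log2 ratio of the 40 genes stayed above 0 in all 18 alternatives. A count cannot change direction, so counts are given by the values they took. The count of portal genes stayed between 21 and 27 (Tom-) and between 24 and 28 (Tom+). The count of genes 1.2-fold higher in Tom+ at matched position was 2; it came to 1 with 2000 genes per cell, with 3 scaled median absolute deviations, with the last 6 score genes of each list, with score genes thinned to 10000 UMIs, with means over cells and without the top 10% of cells by UMIs, to 3 with no limit on any non-hepatocyte list, with no limit on the cholangiocyte list and with boundaries from the Tom- library alone, and to 4 with 5000 genes per cell. The count 1.2-fold lower was 0 and came to 1 with 9 layers and 40 bins (39 bins had enough cells). The median matched log2 ratio of the 40 genes was 0.058; it came to 0.0717 without a limit on non-hepatocyte markers, 0.0405 with the last 6 score genes and 0.0454 with thinned score genes. Oat stayed between 0.41 and 0.58, Amdhd1 between 0.19 and 0.34, and Slc1a2 between -0.27 and 0.09. Where these values moved, the cause was not tested. The alternatives added after seeing the data were no limit on the cholangiocyte list, and scores without Cyp2e1, Cyp1a2 and Cyp2f2 or without Axin2 and Tbx3. No paired analysis was possible because there is a single library per group, so that no replicate could be left out either.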
